A study of Mus musculus with 3 samples.

Results

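The genes described here mark hepatic stellate cells or build the collagen matrix, and they were followed in mRNA profiles of mouse liver from a sham group, a warm ischemia (WI) group and a group with reperfusion after ischemia (IR). They are Lrat, Reln, Des, Acta2, Pdgfrb, Col1a1, Col1a2, Col3a1, Dcn and Timp1. They were found by gene symbol, and they are 10 of the 23361 genes of the FPKM tables. FPKM counts sequenced fragments, scaled by transcript length and by the number of fragments mapped. All mice were labelled as male C57BL/6J of 8-10 week, and they had been fasted for 12 h. The sham mice had a midline laparotomy and no occlusion, and their livers were taken after 90 min. In the WI mice the vessels to the left and median lobes were clamped for 90 min. In the IR mice a clamp of 90 min was followed by 120 min of blood flow. There were 6 mice in a group and 1 library for each condition, and whether a library pools several mice is not stated. The IR livers were taken later than the sham livers, so reperfusion and the longer time after surgery cannot be told apart.

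Hepatic stellate cells lie in the space between the sinusoidal endothelium and the hepatocytes, where they store vitamin A as retinyl esters. After injury they can lose these stores and become myofibroblasts, which carry alpha-smooth muscle actin and lay down fibrillar collagen. How much matrix remains also depends on metalloproteinases, which cut it, and on their inhibitors. Of the 10 genes, Lrat, Reln and Des are known as markers of stellate cells, Acta2 and Pdgfrb as markers of their activation, Col1a1, Col1a2, Col3a1 and Dcn as matrix genes, and Timp1 as an inhibitor of metalloproteinases. Fewer cells of a type and less RNA per cell cannot be told apart in whole liver RNA, and portal fibroblasts and smooth muscle cells also transcribe several of these genes.

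Timp1 and Lrat were the genes that changed by 2-fold or more after reperfusion, in opposite directions. Their promoters are shown as the 250 bases before the start of the RefSeq gene (GRCm38.p6), 5′ to 3′ along the strand of the gene. The Lrat stretch is chr3:82903975-82904224 on the minus strand and the Timp1 stretch is chrX:20869916-20870165 on the plus strand. Capitals mark the matches to CCAAT and GGGCGG, searched on both strands, so that a match on the other strand reads ATTGG or CCGCCC.
Lrat: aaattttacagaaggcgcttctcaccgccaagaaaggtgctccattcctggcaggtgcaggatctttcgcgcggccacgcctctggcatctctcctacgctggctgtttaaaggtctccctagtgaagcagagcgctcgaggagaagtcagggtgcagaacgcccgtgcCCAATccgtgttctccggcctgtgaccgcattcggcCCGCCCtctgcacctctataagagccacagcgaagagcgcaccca
Timp1: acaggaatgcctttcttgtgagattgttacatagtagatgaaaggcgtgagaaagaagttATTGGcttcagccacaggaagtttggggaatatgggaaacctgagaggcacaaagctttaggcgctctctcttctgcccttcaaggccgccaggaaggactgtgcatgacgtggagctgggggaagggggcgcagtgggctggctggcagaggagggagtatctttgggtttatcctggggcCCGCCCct
In the Lrat stretch CCAAT lay 81 to 77 bases before the start, and GGGCGG lay on the other strand 45 to 40 bases before it. In the Timp1 stretch both were on the other strand, with CCAAT at 190 to 186 bases and GGGCGG at 8 to 3 bases before the start. CCAAT was found in 34.5% and GGGCGG in 32.9% of the 27025 promoters of this length, so neither sets the stretches apart. TATAAA and TGANTCA, found in 13.0% and 6.87% of the promoters, had no match in either stretch. Promoter sequences were at hand for 7 of the 10 genes, and those of Col1a1, Dcn and Pdgfrb were not used here. Among the others, Col1a2 held CCAAT at 109 to 105 bases before its start and 2 matches of GGGCGG, Reln held 6 matches of GGGCGG and Des 2, Col3a1 held TATAAA at 117 to 112 bases, and Acta2 held none of the 4. A match of letters is a description and does not show that a factor binds there.

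Each FPKM was deposited with lower and upper 95% bounds from the Cuffdiff model, which rest on its model of the spread of fragment counts and not on measured spread between mice. With 1 library per condition no difference has a replicate check and none was tested. Differences are on the log2(FPKM + 1) scale, which understates the change of genes of low FPKM, and their SD comes from the bounds. A gene was said to rise or fall where FPKM + 1 differed by 2-fold or more, over the 10792 genes whose FPKM reached 1 in any library. The 3 comparisons share libraries and are not independent of each other.

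The libraries differed in other ways that bear on the IR comparisons. Xist, transcribed from the inactive X chromosome of females, had an FPKM of 18.9 in the sham library, 20.1 in the WI library and 1.29 in the IR library, and the Y-linked Eif2s3y was at 0, 0 and 13.2. The sham and WI libraries thus went against their male label and the IR library did not, so sex and reperfusion cannot be told apart, and only the WI and sham comparison is between like libraries. The summed FPKM was 475754, 487912 and 712423. Rescaling to a common sum moved the median change of all genes from 0.03 to -0.45 for IR against WI and from 0.05 to -0.45 for IR against sham, and the share of calls that were rises from 80.2% to 24.5% and from 71.3% to 17.0%. A second rescaling used the median, over genes, of the ratio of each library to the geometric mean of the libraries. It left these medians at 0.02 and 0.05 and the shares of rises at 79.8% and 70.8%. It shifted the log2 differences by only -0.004 for WI against sham, -0.006 for IR against WI and -0.009 for IR against sham. It therefore nearly repeats the deposited scale, and that no difference of the 10 genes changed its sign under it is no separate check. From the steps between low FPKM values, 1 fragment was worth 0.0365, 0.0319 and 0.0443 FPKM for a transcript of 1 kb in the sham, WI and IR libraries. By this estimate the depth of the IR library was 0.825 times that of sham. The uniquely aligned read pairs that the paper reports put the IR library below sham too, but closer to it. Of the cell types other than stellate cells, 7 of 9 neutrophil markers reached an FPKM of 1, and their summed FPKM was 26.1, 20.0 and 471. The 10 macrophage markers summed to 748, 421 and 303 and the 10 endothelial markers to 154, 111 and 128.

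All 10 genes passed the filter on low values, Timp1 only through the IR library and Acta2 only through the WI and IR libraries. From sham to WI, 0 of the 10 genes passed 2-fold, where 1.85% of all genes did (0.751% higher and 1.1% lower), and 0 had bounds apart, against 0.676% of all genes. Of the 10 genes, 5 were higher and 5 lower. From WI to IR, 2 of the 10 passed 2-fold, Timp1 upward and Lrat downward, where 7.21% of all genes did (5.78% higher and 1.43% lower), and 0 had bounds apart, against 3.61%. Between IR and sham the same 2 genes passed 2-fold, where 7.5% of all genes did (5.35% higher and 2.15% lower), and 1 gene, Lrat, had bounds apart, against 3.82%. The median difference of the 10 genes was -0.11, 0.22 and 0.27 in the 3 comparisons, beside 0.02, 0.03 and 0.05 for all genes. After rescaling to a common sum the medians of the 10 genes in the IR comparisons were -0.18 against WI and -0.14 against sham, above the -0.45 of all genes, and 3 genes were higher and 7 lower in each.

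**Figure D1:**
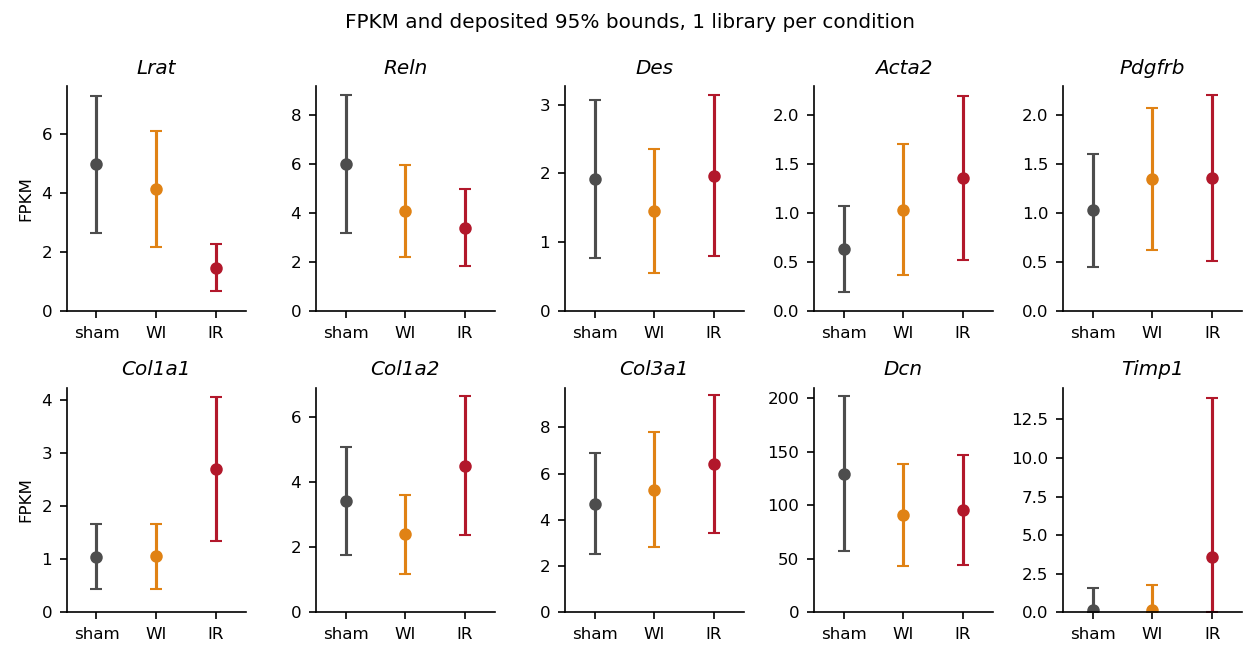
FPKM of each gene (vertical axis, linear from 0, its own scale in each panel) in the sham, WI and IR libraries, with the deposited 95% bounds as bars. Lrat dropped from 4.96 and 4.12 to 1.46 in the IR library, while Timp1 stood at 3.61 there with bounds from 0 to 13.9.

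Lrat encodes lecithin retinol acyltransferase, which esterifies retinol for storage in stellate cells. The gene lies at chr3:82892582-82903974 (mm10, RefSeq), inside a locus of the files that also holds 4930564K09Rik, listed at 0 in all 3 libraries. Its FPKM was 4.96 (95% bounds 2.63 to 7.28) in the sham library, 4.12 (2.16 to 6.09) in the WI library and 1.46 (0.662 to 2.25) in the IR library. The level was close in sham and WI and low in IR, and the IR bounds lay wholly under those of sham. On the log2 scale Lrat differed by -0.22 ± 0.394 (SD from the bounds) from sham to WI, fell by 1.06 ± 0.362 from WI to IR, and fell by 1.28 ± 0.366 between sham and IR. The IR value was 0.294 times the sham value and 0.353 times the WI value. These levels rest on about 699, 665 and 169 fragments, so Lrat was not near the limit of detection in any library. With rescaling to a common sum the differences in the IR library were -1.63 against WI and -1.91 against sham.

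Reln encodes reelin, a secreted glycoprotein that stellate cells make in the liver. It lies at chr5:21884454-22344705, and its FPKM was 6.00 (3.18 to 8.81) in sham, 4.06 (2.18 to 5.94) in WI and 3.39 (1.82 to 4.96) in IR. The order was sham, WI, IR, and the bounds of all 3 overlapped. The differences were -0.47 ± 0.395 from sham to WI and -0.20 ± 0.372 from WI to IR, and the -0.67 ± 0.388 between IR and sham stayed short of 2-fold. With a common sum the difference between IR and sham was -1.24, past 2-fold. In the sham library Reln ranked behind Dcn only, and in the IR library it ranked behind 4 of the genes.

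Des encodes desmin, the intermediate filament protein of stellate and muscle cells, and lies at chr1:75360344-75367715. Its FPKM was 1.91 (0.765 to 3.06) in sham, 1.45 (0.546 to 2.36) in WI and 1.97 (0.795 to 3.14) in IR. The 3 sets of bounds covered nearly the same range. IR and sham differed by 0.03 ± 0.402, the smallest difference of the 10 genes between these libraries. With a common sum the IR differences of Des turned to -0.08 against WI and -0.42 against sham. On that scale Lrat, Reln and Des were all lower in IR than in sham, but so were 7 of the 10 genes in all. The median of all genes was -0.45 there, close to the value of Des. The differences between these markers were not tested.

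Acta2, at chr19:34240336-34255373, encodes alpha-smooth muscle actin. Its FPKM was 0.633 (0.193 to 1.07) in sham, 1.04 (0.367 to 1.71) in WI and 1.36 (0.518 to 2.20) in IR. The point values stood in the order sham, WI, IR, and the bounds overlapped. The difference between IR and sham was 0.53 ± 0.322 with 1 added to the FPKM, and the plain FPKM ratio was 2.15, so this gene passed 2-fold only with no added constant. About 27.4, 51.4 and 48.5 fragments stand behind the 3 values. Pdgfrb encodes the beta receptor of platelet-derived growth factor, which drives stellate cells to divide. Its FPKM was 1.03 (0.450 to 1.60) in sham, 1.35 (0.626 to 2.07) in WI and 1.36 (0.512 to 2.21) in IR. WI and IR differed by 0.01 on the log2 scale, and IR was 0.22 above sham, within the bounds. With a common sum the differences of Pdgfrb turned to -0.37 against WI and -0.12 against sham, and that of Acta2 against WI turned from 0.21 to -0.10.

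Col1a1 and Col1a2 encode the 2 chains that assemble into type I collagen, the main fibrillar collagen of scar. Col1a1, at chr11:94936270-94951856, had an FPKM of 1.05 (0.432 to 1.67) in sham, 1.05 (0.439 to 1.67) in WI and 2.69 (1.33 to 4.05) in IR. The sham and WI values were equal to 3 digits, and the IR value stood above both with bounds that overlapped theirs from 1.33 to 1.67. Its difference was 0.85 ± 0.343 between IR and sham and 0.84 ± 0.342 between IR and WI, under 2-fold on this scale. The plain FPKM ratios were 2.56 to sham and 2.55 to WI, and with 0.1 added to the FPKM in place of 1 the differences were 1.28 and 1.27, so Col1a1 passed 2-fold in both with a smaller added constant. The IR difference kept its direction after rescaling to a common sum, at 0.60 against WI and 0.58 against sham. Col1a2, at chr6:4505697-4541543, had an FPKM of 3.42 (1.76 to 5.08) in sham, 2.40 (1.19 to 3.62) in WI and 4.51 (2.38 to 6.64) in IR. It was lowest in WI and highest in IR, with a difference of -0.38 ± 0.374 from sham to WI and 0.70 ± 0.380 from WI to IR. The FPKM ratio of Col1a1 to Col1a2 was 0.306 in sham, 0.439 in WI and 0.596 in IR, so the transcripts of the pair were nearest in level in the IR library.

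Col3a1 encodes the chain of type III collagen, which lies with type I collagen in fibrils. At chr1:45311538-45349706, its FPKM was 4.70 (2.51 to 6.89) in sham, 5.31 (2.84 to 7.78) in WI and 6.41 (3.44 to 9.37) in IR. The point values stood in the order sham, WI, IR within widely shared bounds, and IR differed from sham by 0.38 ± 0.400. The 3 fibrillar collagen genes together had a summed FPKM of 9.17, 8.77 and 13.6. After rescaling to a common sum the IR differences of Col3a1 turned to -0.25 against WI and -0.12 against sham, and that of Col1a2 against sham turned to -0.16.

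Dcn encodes decorin, a small proteoglycan that coats collagen fibrils and binds TGF-beta, and lies at chr10:97479500-97518162. Its FPKM was 130 (57.2 to 202) in sham, 91.2 (43.4 to 139) in WI and 95.5 (44.1 to 147) in IR. Dcn was the highest of the genes in every library and held 84.5%, 81.3% and 78.1% of their summed FPKM. It stood 21.6 times above the next gene, Reln, in sham, and 17.2 and 14.9 times above the next, Col3a1, in WI and IR, and in each library its lower bound exceeded the upper bounds of the other 9. Between neighbours in the order of the other 9 genes the bounds overlapped in every library. The differences of Dcn were -0.50 ± 0.547 from sham to WI and 0.07 ± 0.536 from WI to IR, and IR differed from sham by -0.44 ± 0.555. Rescaled to a common sum, the last 2 were -0.48 and -1.02, and the latter passed 2-fold.

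Timp1 encodes a secreted inhibitor of matrix metalloproteinases. It lies at chrX:20870166-20874737 (mm10, RefSeq), inside a locus of the files shared with Araf and Syn1. Its FPKM was 0.149 (0 to 1.58) in the sham library, 0.175 (0 to 1.76) in the WI library and 3.61 (0 to 13.9) in the IR library. The IR value was above both others, yet its bounds reached 0 and held those of the other libraries. Timp1 rose by 1.97 ± 1.87 from WI to IR, which is 3.92-fold in FPKM + 1, and was 2.01 ± 1.84 above sham. These values rest on about 2.78, 3.75 and 55.7 fragments. The coefficient of variation, derived from the upper bound, was 482% in sham and 142% in IR where the median over genes was near 26.0%. In the IR library Acta2, with about 48.5 fragments, had a coefficient of variation of 30.9%. The cause of the wide bounds of Timp1 was not tested. The rise was the largest of the 10 genes, remained at 2.16 and 2.21 after rescaling to a common sum, and was not counted where an FPKM of at least 1 was asked of all 3 libraries.

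**Figure D2:**
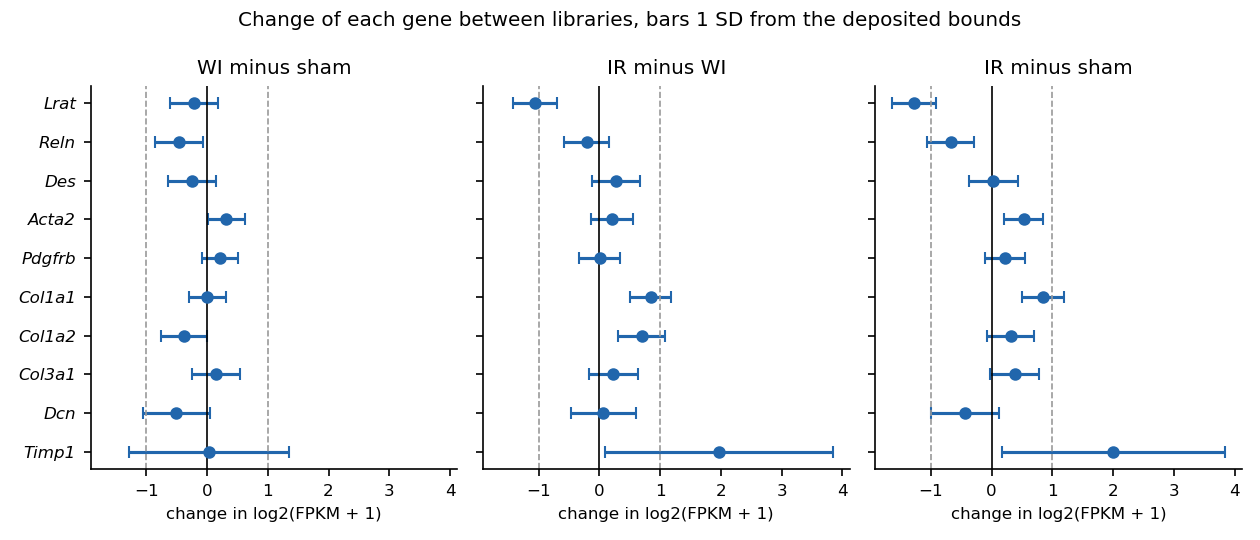
Difference of each gene in log2(FPKM + 1) (horizontal axis) for WI minus sham, IR minus WI and IR minus sham, with bars of 1 SD taken from the deposited bounds and dashed lines at 2-fold. Lrat lies beyond the lower line in both IR panels at -1.06 and -1.28, and Timp1 beyond the upper line at 1.97 and 2.01 with bars of 1.87 and 1.84.

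The genes nearest to Timp1 in pattern, by the distance between their differences from sham to WI and from WI to IR among the genes past the filter, were Cxcr2 at 0.0313, Socs1 at 0.0580, Dbn1 at 0.0831, Actg1 at 0.0862 and Ccr1 at 0.0902. Cxcr2 and Ccr1 are chemokine receptors of leukocytes, Socs1 restrains cytokine signalling, and Dbn1 and Actg1 encode drebrin and gamma actin. Cxcr2 had FPKM values of 0.127, 0.163 and 3.65, and Actg1 had values of 90.2, 91.1 and 340. The likeness follows from the choice of genes and depends on the 1 added to the FPKM, which weighs most on low values such as those of Timp1. The distances rest on 3 libraries and on the wide bounds of Timp1. Among the 10 genes, the nearest other gene to Timp1 was Col1a1 at a distance of 1.13 and the nearest to Lrat was Reln at 0.891. The remaining genes lay closer together, with 0.173 between Col3a1 and Acta2, 0.274 between Dcn and Reln, 0.410 between Col1a1 and Col1a2, 0.232 from Pdgfrb to Acta2 and 0.330 from Des to Dcn.

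**Figure D3:**
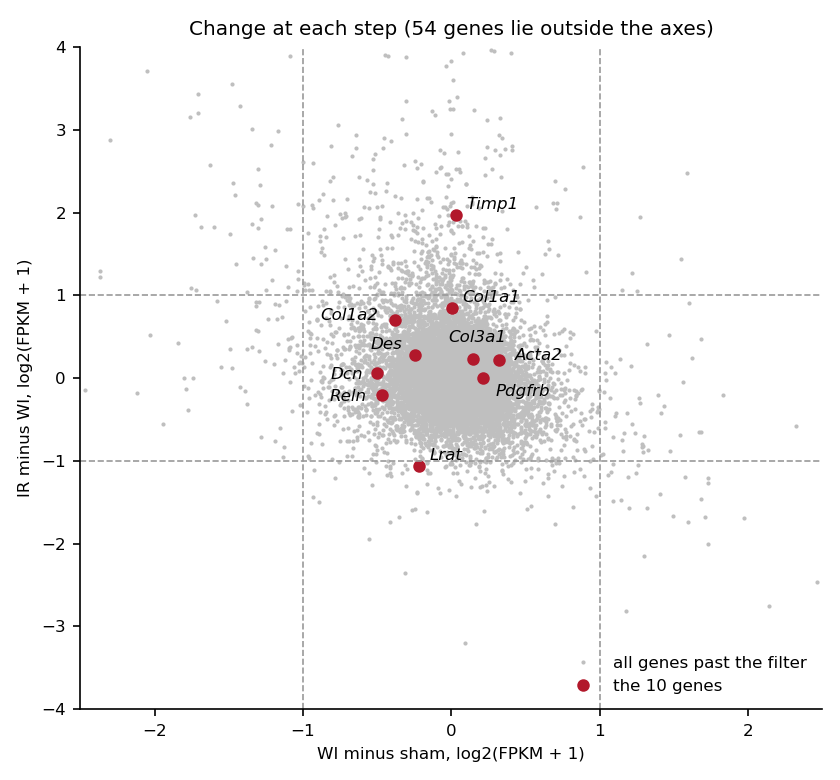
Difference from sham to WI (horizontal axis) against difference from WI to IR (vertical axis), both in log2(FPKM + 1), for the genes past the filter in grey and the 10 genes in red, with dashed lines at 2-fold and 54 genes outside the axes. Timp1 at 1.97 and Lrat at -1.06 lie past 2-fold on the vertical axis, and no red point passes 2-fold on the horizontal axis.

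Other markers of stellate cells were lower in more cases than higher. For this and the lists below, the shares of all genes past 2-fold were 0.751% higher and 1.1% lower from sham to WI. They were 5.78% and 1.43% from WI to IR, and 5.35% and 2.15% between IR and sham. With a common sum, 95 of the 10792 genes rose and 181 fell from sham to WI. On that scale 385 rose and 1185 fell from WI to IR, and 319 rose and 1554 fell between IR and sham. Of the 28 other stellate cell markers 25 passed the filter. From sham to WI 22 of them were lower and 3 higher, with 0 past 2-fold and a median of -0.34. From WI to IR 10 were higher and 15 lower, of which 2 rose (Steap4 and Spon2) and 2 fell (Gdf2 and Pth1r), with a median of -0.17. Spon2 passed the filter only through the IR library. In IR relative to sham 1 rose and 5 fell, with a median of -0.49 beside 0.05 for all genes, and with a common sum 1 rose and 13 fell with a median of -1.03 beside -0.45. The 5 that fell were Gdf2, Pth1r, Vipr1, Colec10 and Colec11. Gdf2, which encodes the ligand BMP9, had FPKM values of 9.19, 5.93 and 2.13 in sham, WI and IR and fell by 1.70 in IR relative to sham with bounds apart. Pth1r, the parathyroid hormone receptor, had values of 4.34, 3.79 and 1.17, close to the course of Lrat. Vipr1, a receptor of vasoactive intestinal peptide, was already lower in WI, with 12.5, 6.46 and 4.51. The collectin genes Colec10 and Colec11 fell by 1.16 and 1.05. Steap4, a metalloreductase that other liver cells also express, went the other way with 29.8, 49.7 and 141, a rise of 2.21 over sham with bounds apart. Of the 25 genes 1 had bounds apart upward and 2 downward between IR and sham. Ecm1, a secreted matrix protein, had values of 65.9, 45.0 and 49.5. Markers of macrophages and endothelium were also lower in WI, in 10 of 10 and 10 of 10 genes, and 7 macrophage markers fell in IR relative to sham. Their part in the stellate values was not tested.

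Retinoid genes were described because Lrat belongs to this pathway. Of 28 found in the files 20 passed the filter, and 1 fell in WI and in IR relative to sham while 0 rose, with medians of 0.07 and 0.14. On the common-sum scale 2 fell in IR relative to sham, with a median of -0.41, and 3 fell from WI to IR. That gene was Cyp26b1, whose enzyme degrades retinoic acid. Its FPKM was 3.73 in sham, 0.765 in WI and 0.635 in IR, a fall of 1.42 by the end of ischemia with bounds apart from sham, and -0.11 more in IR. Cyp26b1 was thus low in the WI and IR libraries, while Lrat passed 2-fold in the IR library only. Rbp4, the plasma carrier of retinol made by hepatocytes, had 3334, 3404 and 3773, and Adh1, an alcohol dehydrogenase that oxidises retinol, had 1555, 2246 and 1742, neither past 2-fold. Of 5 genes of the reelin pathway 2 passed the filter. Vldlr, a receptor of reelin, had values of 0.723, 1.85 and 0.399 and fell by 1.03 from WI to IR, and the kinase Fyn had 4.55, 3.45 and 3.64. Vldlr passed the filter only through the WI library.

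Among 39 other collagen chains only 10 passed the filter. From sham to WI 1 rose, from WI to IR 2 rose, and in IR relative to sham 3 rose, while 0 fell in any of the 3. The medians were -0.13, 0.33 and 0.24. After rescaling to a common sum 1 rose and 1 fell from WI to IR and 2 rose over sham, and the IR medians turned to -0.13 and -0.19. Col4a1 and Col4a2 encode the chains of type IV collagen, the network of basement membranes. Col4a1 had FPKM values of 5.13, 3.93 and 16.2 and rose by 1.80 from WI to IR, and Col4a2 had 3.14, 2.68 and 7.62 and rose by 1.23. Both rises were larger than the 0.84 of Col1a1 over the same step, though the 2 gene pairs were not tested against each other. Col5a3 had 0.482, 0.729 and 2.25, a rise of 1.13 over sham, and passed the filter only through the IR library. Col15a1, a gene that portal fibroblasts also express, had 0.522, 2.12 and 1.15 and was the gene that rose from sham to WI, by 1.03. The 11 portal fibroblast markers summed to 13.4, 16.3 and 13.4. Of the 6 past the filter 3 were higher and 3 lower in WI than in sham, with a median of 0.02. Gas1 had the largest of these differences, 0.87, and stood at 3.31, 6.88 and 2.67. Col18a1, the chain that holds endostatin, lay between 93.5 in WI and 126 in IR and was the highest of the list.

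No gene of the machinery that folds and crosslinks collagen passed 2-fold on the deposited scale. Of 28 genes 16 passed the filter, 0 passed 2-fold in any comparison, and the medians were -0.16, 0.22 and 0.12. After rescaling to a common sum 1 fell over sham, and the IR medians turned to -0.21 against WI and -0.38 against sham. P4hb, a subunit of prolyl hydroxylase that also acts as a disulfide isomerase, had 397, 538 and 566, and Ppib, cyclophilin B, had 113, 142 and 152. Of 38 proteoglycans and matrix glycoproteins 23 passed, and 1 rose in each IR comparison, with medians of 0.04 against WI and -0.17 against sham. On the common-sum scale 1 rose and 4 fell over sham, with a median of -0.65. That gene was Thbs1, thrombospondin-1, an activator of TGF-beta, with FPKM values of 0.269, 0.612 and 11.0 and a rise of 3.24 over sham, and it passed the filter only through the IR library. Vtn and Fn1, plasma glycoproteins of hepatocytes, had 804, 924 and 1326 and 190, 193 and 186.

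Proteases of the matrix and their inhibitors held the most rises of the matrix and stellate lists. Of 33 genes besides Timp1 16 passed the filter. From sham to WI 0 passed 2-fold, from WI to IR 7 rose and 0 fell, and in IR relative to sham 6 rose and 0 fell, with medians of -0.11, 0.73 and 0.57. Of all genes 5.78% rose from WI to IR and 5.35% over sham. With a common sum 7 rose and 1 fell from WI to IR and 6 rose and 2 fell over sham, with medians of 0.24 and 0.06 beside the -0.45 of all genes. Adamts4, an aggrecanase, had 0.0103, 0.0360 and 9.86, a rise of 3.43 over sham. Plaur, the urokinase receptor, had 0.441, 0.441 and 10.1, and Mmp8, the collagenase of neutrophils, had 0.139, 0.0573 and 8.59. Adamts4, Adamts9, Plaur and Mmp8 passed the filter only through the IR library. All 7 neutrophil markers past the filter rose in both IR comparisons and Mmp8 is among them. Of these, Mmp8, Cxcr2 and Ngp passed the filter only through the IR library, while Mmp9 and Camp did not pass it. The part of the neutrophil markers in this list and in Timp1 was not tested. Timp3, an inhibitor bound to matrix, had 15.6, 9.30 and 15.8, unlike Timp1.

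Of 31 genes of PDGF and TGF-beta signalling 24 passed the filter. Skil, a repressor of SMAD signalling, had 6.05, 2.07 and 2.46 and was the gene that fell from sham to WI, by 1.20. From WI to IR 1 rose, and in IR relative to sham 2 rose and 1 fell, with a median of -0.29. Tgif1, a corepressor of SMAD proteins, had 7.58, 7.46 and 20.9, and Smad3, the transducer of TGF-beta, had 1.39, 2.09 and 4.13. Eng, a TGF-beta coreceptor of endothelium, had 22.7, 18.4 and 15.7, and Tgfbi, a TGF-beta induced matrix protein, had 22.1, 14.5 and 17.6. Of 22 contractile genes of smooth muscle 14 passed, and 2 rose from WI to IR and 1 over sham, with a median of 0.22 over sham. Vcl, vinculin, had 4.08, 4.85 and 14.0, a rise of 1.56, and Mkl1, a coactivator of serum response factor, had 1.77, 1.39 and 3.86. Cald1 had 35.8, 48.5 and 41.6 and Tpm1 had 12.8, 15.9 and 17.2. Rescaled to a common sum, the signalling list had 0 rises and 3 falls against WI and 0 rises and 8 falls over sham, and the smooth muscle list 0 rises and 1 fall against WI and 1 of each over sham. The common sum shifted the log2 differences by -0.036, -0.546 and -0.583 in the 3 comparisons, which is less than 2-fold. A gene past 2-fold could therefore not change its direction, and none in the lists did.

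**Figure D4:**
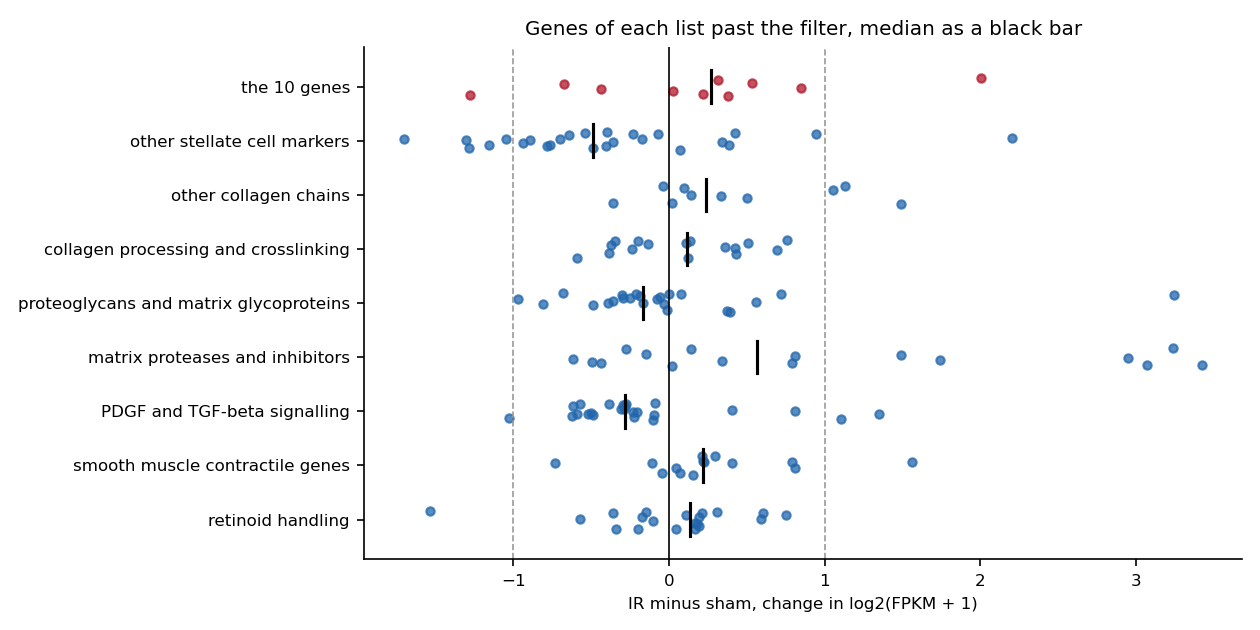
Difference between IR and sham in log2(FPKM + 1) (horizontal axis) for each gene past the filter, by list, with the median as a black bar and dashed lines at 2-fold. The median is 0.27 for the 10 genes, -0.49 for other stellate cell markers and 0.57 for matrix proteases and inhibitors.

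Cells other than stellate cells that could hold fibrillar collagen, desmin or actin were checked by their markers. Of 11 portal fibroblast markers 6 reached an FPKM of 1 in at least 1 library, with sums from 13.4 to 16.3. Their part in the collagen values was not tested. Of 7 vascular smooth muscle markers only Tagln reached an FPKM of 1, at 5.59, 4.28 and 6.33, and Myocd was at 0 in all 3 libraries. None of 12 skeletal muscle markers reached 1, and 7 of them, Acta1, Myh1, Myh2, Myh4, Tnnt3, Tnnc2 and Actn3, were at 0 in all 3. None of 7 mesothelial markers reached 1, with sums from 0.898 to 1.38. The labelled tissue was met by 9 of 10 hepatocyte markers, and Alb was listed at 0 in all 3 libraries with the status that marks too many fragments to process.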

How the data were processed

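Messenger RNA of mouse liver was sequenced in read pairs, and 3 libraries were analysed, 1 per group. The authors mapped the reads to mm10 (TopHat2 2.0.9 per the submitters' processing notes) and deposited FPKM per gene with 95% bounds from Cuffdiff (Cufflinks 2.0.2). FPKM was used as deposited. Counts per gene were not used here, so depth was taken from the steps of low values over 190 to 224 genes, and fragments per gene are approximate, since transcript lengths came from another annotation. The 10 genes and all lists were chosen with earlier results of these data known. Beside the 10 genes, up to 4 genes of each list with the largest change among those past 2-fold and up to 2 with the highest mean FPKM were named. A gene that this rule names is counted in its list and not reported here. Adamts9, Colec10, Colec11, Spon2, Gas1 and the cell type markers were named after their values were seen. Differences were taken in log2(FPKM + 1) with a minimum FPKM of 1 in at least 1 library, and no test was run. The SD was derived from the upper bound, taken as 2 SD above the value. The alternatives were a pseudocount of 0.1 or none, 2 other filters, thresholds of 1.5-fold and 4-fold, 2 rescalings and genes of status OK. Scripts were tested on simulated data (Python 3.11.15, numpy 2.4.6, pandas 2.3.3, matplotlib 3.10.9).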

Additional observations from a re-analysis of the deposited data

How the results depend on the processing

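The alternatives left the count of the 10 genes past 2-fold from sham to WI at 0. For IR against WI the count of 2 became 3 (adding Col1a1) with a pseudocount of 0.1 and with none, 1 (Lrat) with FPKM of at least 1 in all libraries, 4 at 1.5-fold and 0 at 4-fold, and the count with bounds apart became 1 (Lrat) with a common sum. For IR against sham the count of 2 became 3 (adding Col1a1) with a pseudocount of 0.1, 4 without a pseudocount (adding Col1a1 and Acta2), 1 (Lrat) with FPKM of at least 1 in all libraries, 4 at 1.5-fold, 1 (Timp1) at 4-fold and 4 with a common sum (adding Dcn and Reln, both lower). Of 204 differences of single genes under the alternatives 10 changed sign, none past 2-fold and all with a common sum. A change of filter or pseudocount cannot change a sign, and the median ratio shifted the differences very little. The 204 is therefore no measure of how firm the directions are. Over all genes the calls were 200, 778 and 809 for WI against sham, IR against WI and IR against sham. They became 382, 1239 and 1429 with a pseudocount of 0.1, 435, 1309 and 1480 without one, 800, 2132 and 2572 at 1.5-fold, and 24, 194 and 166 at 4-fold. In the IR comparisons they were 774 and 807 with the median ratio, and 1570 and 1873 with a common sum. The cause was not tested. No paired analysis was possible because each condition has 1 library, and for the same reason no library could be left out.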

Other observations

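Markers of bile duct cells and heat shock chaperones were also measured. Of 8 cholangiocyte markers 5 passed the filter, and 1 rose in IR, with a median of 0.73 over sham. Sox9, a transcription factor of duct cells, had FPKM values of 0.275, 0.351 and 1.91 in the sham, WI and IR libraries, with the IR bounds apart from both others. It passed the filter only through the IR library. Spp1, which encodes osteopontin, had 51.8, 58.7 and 86.7 and did not pass 2-fold. Of 8 heat shock chaperones 7 rose in IR relative to sham, among them Hspa1b with 1.99, 8.36 and 442 and Hspb1 with 7.77, 6.17 and 220.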
